A study of Mus musculus with 8 samples.

Results

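Schwann cells wrap the axons of skin nerves, and 8 genes of these cells and of their myelin were followed in mouse forepaw skin: Mbp, Pmp22, Prx, Mal, Fa2h, Mag, Sox10 and Egr2. A gene counted as measured when the array annotation gave it a probe set (a group of probes summarised to 1 value) of its own. That held for 7 of the 8, each with 1 probe set, among 30712 genes in all; Prx was not analysed here. Their gene IDs are 17196 for Mbp, 18858 for Pmp22, 17153 for Mal, 338521 for Fa2h, 17136 for Mag, 20665 for Sox10 and 13654 for Egr2.

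The samples were paw skin RNA of 8 C57Bl/6 littermates aged 8 weeks, 1 Affymetrix array per mouse, with 2 males and 2 females of each genotype. The 4 wild-type (WT) mice had normal skin, and the 4 Krt16 null mice, whose Krt16 coding region was exchanged for bacterial LacZ, had lesions. Genotype and lesion therefore cannot be told apart. Signals were summarised by RMA in log2 units, where 1 unit is a doubling. Differences are null minus WT from a limma fit over all genes with sex as a covariate, with their standard error (SE), and the call rule was an adjusted p (Benjamini-Hochberg, all genes) under 0.05. It called 2169 genes (7.06%) higher and 1837 (5.98%) lower in null mice, 13.0% together, and the genotypes separated fully in 18.9% of genes. Higher and lower calls numbered 1311 and 1075 when male WT 1 was left out, 1206 and 840 for male null 2, 1229 and 843 for female null 1, and 1720 and 1111 for female null 2. Negative controls, which show a probe set's level without signal, had array medians of 4.26 to 4.46. Krt16 itself gave 8.35 ± 1.07 in WT and 6.90 ± 0.07 in null skin (SD, n = 4), a difference of -1.45 (SE 0.44, adjusted p = 0.0615). It was called with same-numbered mice as pairs (adjusted p = 0.0285) and without female WT 1 (-1.98, adjusted p = 0.000774). It was not called without any other array, where the adjusted p reached 0.1496, and was smallest without female WT 2 (-0.94). Krt16 in female WT 1 was 7.05, close to the null mice at 6.83 to 6.99, while the other WT mice gave 8.20 to 9.66. Probe positions were not used, and probes outside the exchanged region check nothing about the allele. The epidermal keratins Krt5, Krt14, Krt1 and Krt10 were bright in both genotypes, with WT means of 10.41 (Krt14) to 12.32 (Krt10) and no call. Krt9, of palm and sole epidermis, fell from 11.36 to 8.90 (adjusted p = 0.000694).

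A myelinating Schwann cell winds its membrane around 1 axon in tightly packed layers. The transcription factor SOX10 specifies the lineage and keeps it, and together with SOX10 the zinc finger factor EGR2 (Krox20) switches on myelin proteins and lipid enzymes. MBP glues the inner faces of the layers, PMP22 is a small membrane protein of compact myelin, and MAG sits where the innermost layer meets the axon. MAL is a proteolipid of membrane sorting, and FA2H hydroxylates the fatty acids of myelin sphingolipids. Several of these genes also serve other skin cells. Fa2h is used in sebaceous gland and epidermal lipids, Mal in epithelia, Pmp22 in fibroblasts and epithelia, Sox10 in melanocytes, and Egr2 in hair follicles and as an immediate early gene.

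The promoters of the members that moved and could be matched are shown first, with 1 window of Mag, which was not called and which alone of the measured members had windows with a motif match, for comparison. RefSeq windows (build GRCm38.p6) were held for 4 of the measured members: 4 for Pmp22, 1 for Mal, 3 for Mag and 5 for Egr2; Mbp, Fa2h and Sox10 had none. Each line gives the 250 bases before a transcript start, 5′ to 3′ on the gene's strand, in lower case. Capitals mark matches to ACAAAG, a core recognised by SOX factors, or to GCGTGGG, part of the EGR site, searched on both strands. Pmp22 is shown at the first and the last of its listed starts.
Pmp22, first start, chr11:63128732-63128981, plus strand: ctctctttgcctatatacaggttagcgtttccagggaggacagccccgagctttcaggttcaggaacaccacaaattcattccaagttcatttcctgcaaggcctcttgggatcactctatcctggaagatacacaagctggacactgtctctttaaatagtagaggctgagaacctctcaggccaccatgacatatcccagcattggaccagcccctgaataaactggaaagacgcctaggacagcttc
Pmp22, last start, chr11:63132553-63132802, plus strand: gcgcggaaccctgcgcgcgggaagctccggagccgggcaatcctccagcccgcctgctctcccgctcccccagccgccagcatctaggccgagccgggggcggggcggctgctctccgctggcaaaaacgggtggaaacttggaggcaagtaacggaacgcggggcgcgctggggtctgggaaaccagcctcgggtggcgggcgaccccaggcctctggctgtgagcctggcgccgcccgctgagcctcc
Mal, chr2:127656696-127656945, minus strand: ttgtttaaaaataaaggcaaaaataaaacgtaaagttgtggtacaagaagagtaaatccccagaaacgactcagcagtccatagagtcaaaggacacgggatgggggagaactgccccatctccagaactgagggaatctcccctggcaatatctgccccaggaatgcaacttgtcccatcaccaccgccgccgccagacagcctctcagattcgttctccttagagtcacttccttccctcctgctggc
Mag, chr7:30914864-30915113, minus strand: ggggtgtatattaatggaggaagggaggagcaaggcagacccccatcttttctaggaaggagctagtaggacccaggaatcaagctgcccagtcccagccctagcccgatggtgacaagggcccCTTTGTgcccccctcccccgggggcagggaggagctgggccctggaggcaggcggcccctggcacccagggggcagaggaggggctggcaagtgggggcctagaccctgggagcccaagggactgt

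The Mag window holds 1 SOX match, on the opposite strand. It was shown for that match: a second Mag window overlaps it and holds the same site, and the third holds none. None of the Mal and Pmp22 windows shown holds either motif. Of 32851 windows of all genes, 16.5% hold ACAAAG and 4.3% GCGTGGG. Base content separates the starts of Pmp22: the first has 48.8% G and C with 3 CpG sites, the last 73.6% with 27, while the median window has 52.4% and 6. Pmp22 is known for separate promoters in Schwann cells and in other tissues. Its single probe set gives 1 value for the gene, so the starts could not be told apart by signal. A match is a run of letters and no evidence of binding, and a window without one says nothing about either factor.

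The comparison asks whether these genes differ between lesional null and normal WT paw skin. Fa2h and Pmp22 fell, Mal rose, and Mbp, Mag, Sox10 and Egr2 were not called. Thus 1 of 7 was higher and 2 of 7 lower, against 7.06% and 5.98% of all genes, dim ones included. The median difference of the 7 was -0.04, against 0.01 for all genes. In 3 of 7 the genotypes did not overlap, against 18.9% of all genes. Arrays read bulk skin, where fewer cells of a type and less RNA per cell cannot be told apart.

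**Figure D1:**
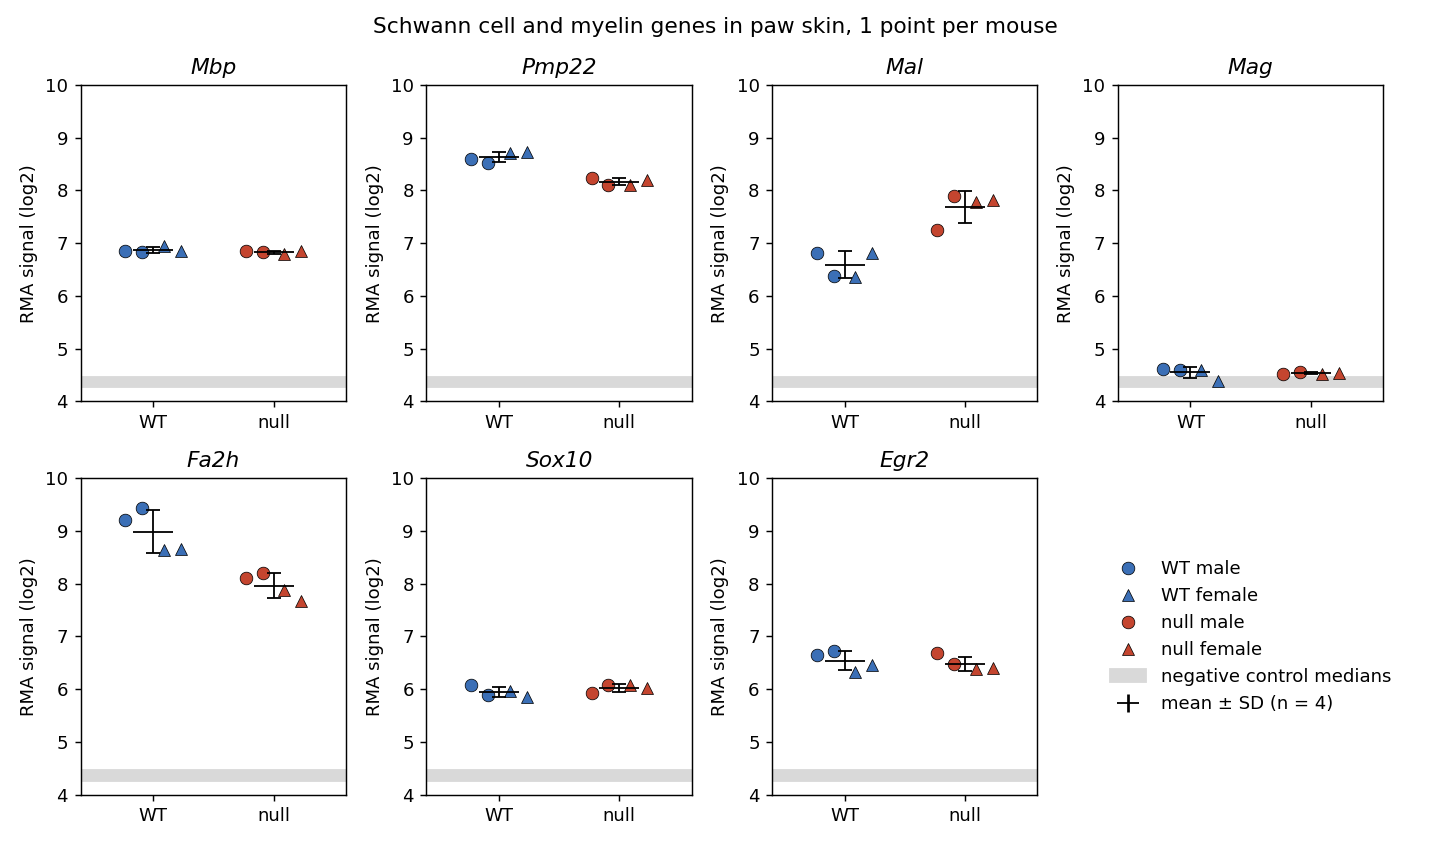
RMA signal (log2) of the 7 measured genes in each mouse, circles for males and triangles for females, with mean ± SD of 4 mice per genotype and a grey band for the negative control medians of 4.26 to 4.46. WT and null points separate for Pmp22, Mal and Fa2h and overlap for Mbp, Mag, Sox10 and Egr2; Mag lies at the edge of the band.

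Among the proteins of compact myelin, Mbp gave almost the same signal in all 8 mice. The WT males gave 6.85 and 6.83, the WT females 6.95 and 6.84, the null males 6.84 and 6.83, and the null females 6.79 and 6.86. The genotypes overlapped. The difference was -0.04 (SE 0.05, 95% confidence interval -0.16 to 0.08, adjusted p = 0.726), an interval that runs from 89.8% to 105.7% of the WT level.

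Pmp22 was lower in null skin. The WT mice gave 8.61 and 8.52 (males) and 8.71 and 8.72 (females), the null mice 8.24 and 8.11 (males) and 8.11 and 8.19 (females). Every null array lay under every WT array. The difference was -0.47 (SE 0.06, adjusted p = 0.00189), which leaves 72.0% of the WT level. Without any 1 array it ran from -0.52 to -0.44 with an adjusted p of at most 0.0101. Skeletal muscle genes fell with it: the mean of 20 such genes was 8.84 to 9.60 in WT and 8.10 to 8.63 in null arrays. With that mean as a covariate the Pmp22 difference was -0.35 (SE 0.11) and not called (adjusted p = 0.176). The mean and sex together account for 73.1% of the genotype term, so this fit separates muscle content and genotype poorly.

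Mal rose. WT males read 6.82 and 6.39, WT females 6.36 and 6.81, null males 7.24 and 7.89, and null females 7.79 and 7.83. The lowest null mouse, male null 1, still lay above the highest WT mouse. The difference of 1.09 (SE 0.16, adjusted p = 0.00355) is 2.13-fold. It ran from 0.98 without female WT 1 to 1.25 without male null 1, and the adjusted p stayed at or under 0.0166. With the skeletal muscle mean as a covariate it was 0.63 (SE 0.26) and not called (adjusted p = 0.32), under the same limit as for Pmp22.

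Mag, the adhesion protein at the axon, was close to the array's background. Its signals were 4.61 and 4.60 in WT males, 4.60 and 4.39 in WT females, 4.53 and 4.56 in null males, and 4.52 and 4.54 in null females. Female WT 2 lay 0.07 under its own array's negative control median. The difference was -0.01 (SE 0.06, interval -0.15 to 0.13, adjusted p = 0.93), and at this level a change of Mag may not be visible.

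Fa2h, the lipid enzyme, fell most of the 7. The WT males gave 9.21 and 9.44 and the WT females 8.64 and 8.66, while the null males gave 8.11 and 8.20 and the null females 7.88 and 7.67. All null values lay under all WT values, and within each genotype both males lay above both females. The difference was -1.02 (SE 0.09, adjusted p = 0.000201), which leaves 49.2% of the WT level. It ran from -1.10 to -0.95 when single arrays were left out, called each time, and stayed called with the skeletal muscle mean as a covariate (-1.25, SE 0.14, adjusted p = 0.00687).

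The transcription factor genes Sox10 and Egr2 were not called. Sox10 gave 6.08 and 5.89 in WT males, 5.97 and 5.86 in WT females, 5.92 and 6.07 in null males, and 6.08 and 6.02 in null females. The genotypes overlapped, and the difference was 0.08 (SE 0.07, interval -0.08 to 0.23, adjusted p = 0.565). Egr2 gave 6.65 and 6.72 in WT males, 6.32 and 6.46 in WT females, 6.68 and 6.48 in null males, and 6.39 and 6.40 in null females. It overlapped as well, with a difference of -0.05 (SE 0.07, interval -0.20 to 0.09, adjusted p = 0.694).

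Differences between members within an array were read against Mbp, a choice made after the values were seen. Fa2h minus Mbp changed by -0.98, Pmp22 minus Mbp by -0.44 and Mal minus Mbp by 1.13 from WT to null. Each had p = 0.0286 (exact permutation test, two-sided, 70 assignments of genotype), the smallest p this design allows, and an adjusted p of 0.0571 over the 6 pairs compared. Mbp hardly varied and these members already separated by genotype, so the test adds no support to their calls. The assignments were not held within sex. The other pairs changed by 0.02 for Mag (exact p = 0.714), 0.11 for Sox10 (exact p = 0.171) and -0.01 for Egr2 (exact p = 0.914).

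Both sexes were then read apart, from a fit of the 4 group means with 2 mice each. Fa2h fell in males by 1.17 (SE 0.11, adjusted p = 0.00234) and in females by 0.87 (SE 0.11, adjusted p = 0.00865). Pmp22 differed by -0.39 in males (adjusted p = 0.059) and fell in females by 0.56 (adjusted p = 0.0163). Mal differed by 0.97 in males (adjusted p = 0.0839) and rose in females by 1.22 (adjusted p = 0.0387). Over all genes 2.21% were called in males and 3.01% in females. The difference between the sexes itself was called in none of the 7, with adjusted p from 0.973 to 0.989 in limma, and 0 of the 7 had an unadjusted p under 0.05. Over all genes it was called in 2 (0.00651%).

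**Figure D2:**
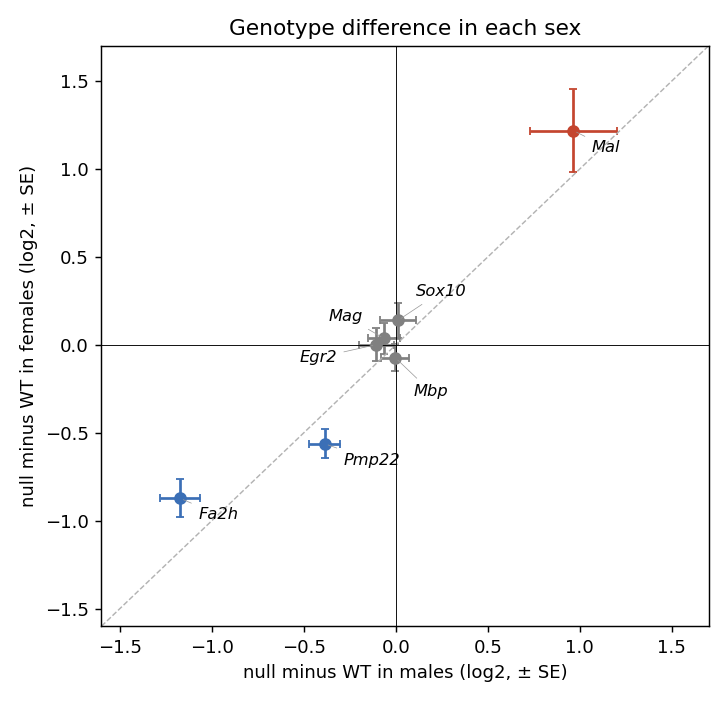
Null minus WT (log2) in males on the horizontal axis and in females on the vertical axis, each ± SE from the fit of 4 group means, with the line of equal effects dashed. Mal (0.97 and 1.22), Pmp22 (-0.39 and -0.56) and Fa2h (-1.17 and -0.87) lie away from 0 on both axes. Of these only Fa2h was called in males. The 4 other genes lie near the origin.

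Other genes of the pathway were read from 4 lists with 61 genes, of which 57 were measured. In all, 8 were higher and 6 lower, 24.6% called against 13.0% of all genes, with a median difference of 0.00. The 13.0% takes in many genes at or under the negative controls, unlike most of the 57. With only the 17038 or so genes above the controls fitted, limma called 2170 higher and 2038 lower. That is a larger share than over all genes, so the 24.6% is not read as an excess. With the skeletal muscle mean as a covariate only 1 of the 14 calls in the lists was left, that of Jun. Calls over all genes then fell to 231 higher and 104 lower. The muscle mean and sex together account for 73.1% of the genotype term in that fit. Some genes of the 4 lists had a mean at or under the highest negative control median, where a change may not be visible. They were 1 gene of myelin structure, 1 lipid enzyme, 2 regulators and 4 genes of the non-myelinating, immature and repair list. Beside Sox10, 3 other markers that define Schwann cells were measured, and limma called 0 of them (1 at an unadjusted p under 0.05, Erbb3). S100b, a calcium-binding protein of glia, differed by 0.09 (adjusted p = 0.752), the Schwann cell cadherin gene Cdh19 by -0.16 (adjusted p = 0.439), and the neuregulin receptor gene Erbb3 by 0.16 (adjusted p = 0.167). Cdh19 was dim, with means of 4.77 in WT and 4.62 in null skin, so a change of it may not be visible.

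**Figure D3:**
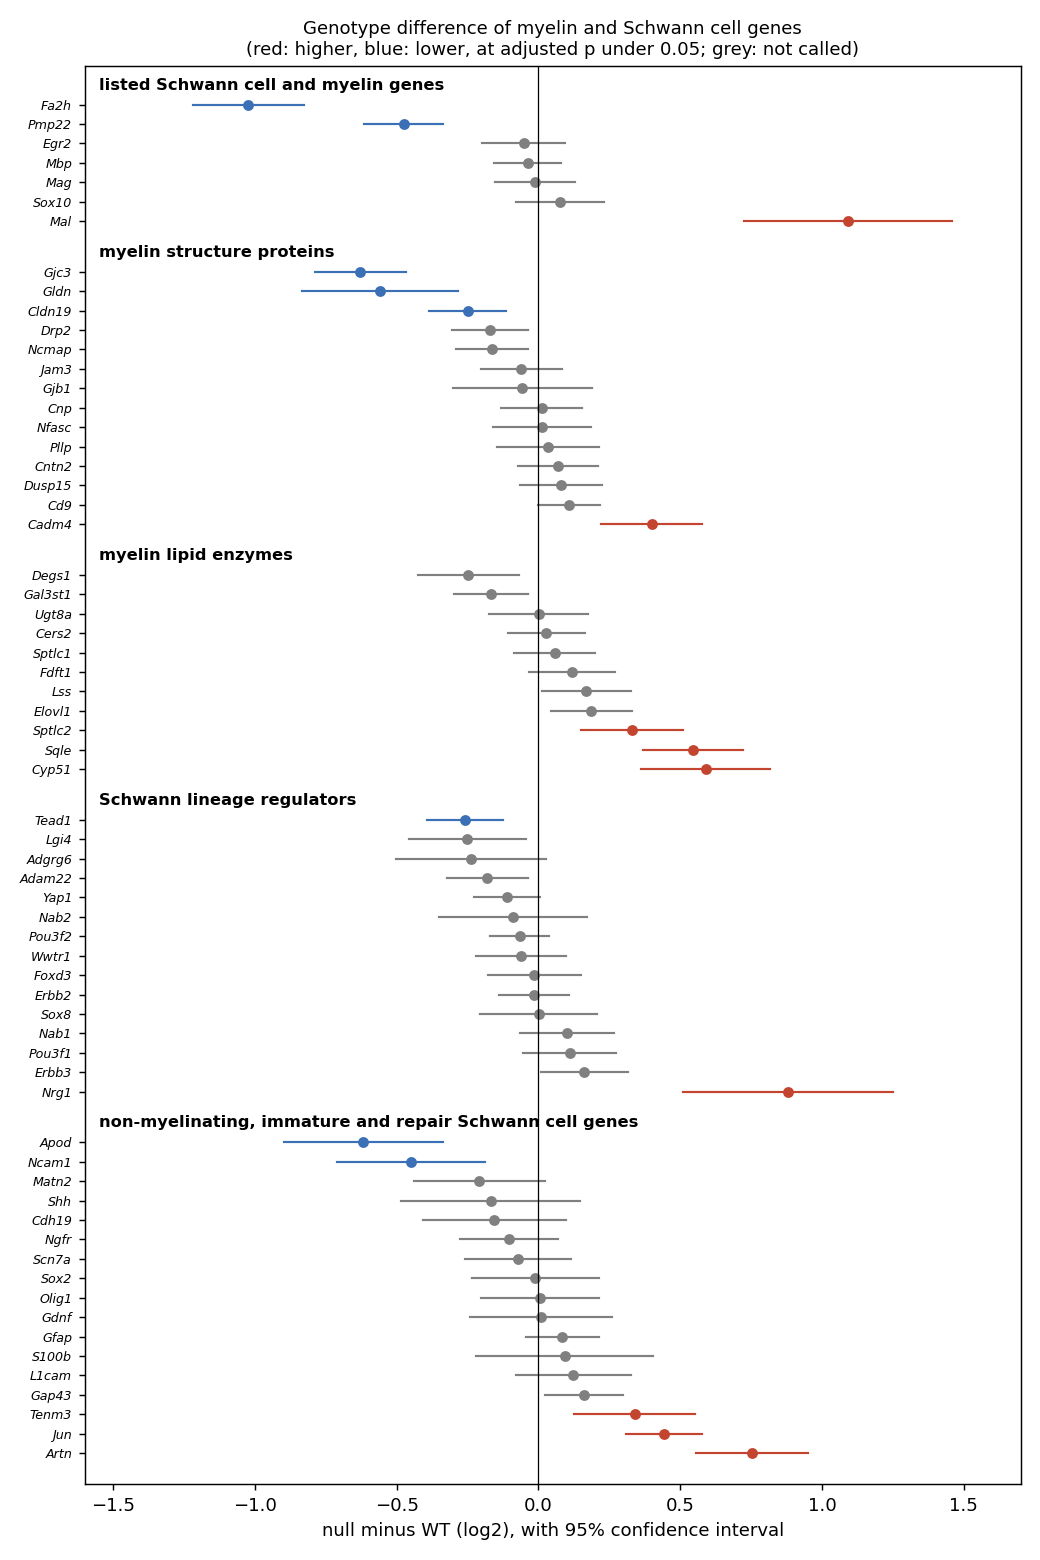
Null minus WT (log2) with its 95% confidence interval for the 7 genes and for 57 genes of 4 related lists, red where higher, blue where lower and grey where not called at adjusted p under 0.05. Most points lie near 0; Mal, Nrg1 and Artn lie farthest right, Fa2h, Gjc3 and Apod farthest left.

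Of 14 measured genes of myelin structure, 1 rose, 3 fell and 10 were not called (median -0.02). Gjc3, a connexin of glia, fell from 5.43 ± 0.12 to 4.80 ± 0.16 (SD, n = 4), by 0.63 (SE 0.07, adjusted p = 0.000979). Its null arrays gave 4.78 and 4.64 (males) and 4.76 and 5.02 (females), all under the WT arrays at 5.28 to 5.54. These null arrays lay little above the negative control medians, so the size of the fall is uncertain. Gldn, for gliomedin of the node of Ranvier, fell by 0.56 (adjusted p = 0.0179), and Cldn19, for a claudin of Schwann cell junctions, by 0.25 (adjusted p = 0.0272). Cadm4, for an adhesion protein facing the axon, rose by 0.40 (adjusted p = 0.012). The count of 3 falls dropped to 1 without male null 2, where Gldn had an adjusted p of 0.0536 and Cldn19 of 0.0667. Without female WT 2 alone Cldn19 kept its call, its adjusted p being 0.05003 to 0.0913 without any other array. None of the 4 was called with the muscle covariate, at -0.55 for Gjc3 (adjusted p = 0.106), -0.18 for Gldn (0.781), -0.13 for Cldn19 (0.728) and 0.22 for Cadm4 (0.559).

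Of 11 enzymes of myelin lipids 3 rose and 0 fell (median 0.12). The cholesterol synthesis gene Cyp51 rose by 0.59 (adjusted p = 0.00654) and Sqle, of the same pathway, by 0.54 (adjusted p = 0.00305). Sptlc2, of the first step of sphingolipid synthesis, rose by 0.33 (adjusted p = 0.0274). All 3 act in lipid synthesis of many cells, not of glia alone. Ugt8a, for the enzyme that makes the galactolipid of myelin, gave 4.32 in both genotypes, within the negative control medians. Without male WT 2 the rises numbered 5, and without male WT 1 a single fall was called. Sptlc2 lost its call when male WT 1 or any null mouse except male null 1 was left out (adjusted p 0.0558 to 0.0900). The 3 calls were lost with the muscle covariate, at 0.25 for Cyp51 (adjusted p = 0.516), 0.36 for Sqle (0.263) and 0.09 for Sptlc2 (0.853).

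Of 15 regulators of the Schwann lineage 1 rose and 1 fell (median -0.06). Nrg1, for the growth factor neuregulin 1, rose from 5.24 ± 0.23 to 6.12 ± 0.32, by 0.88 (SE 0.16, adjusted p = 0.0095). Its WT values were 5.03 to 5.51 and its null values 5.68 to 6.41. Which cells of the bulk skin gave the Nrg1 signal was not tested. Tead1, a partner of YAP and TAZ, fell by 0.26 (adjusted p = 0.022). The fall lost its call when any null mouse except male null 1 was left out (adjusted p 0.0602 to 0.0794), which left 0 falls in the list, and 2 were called without female WT 1. With the muscle covariate neither was called, at 0.22 for Nrg1 (adjusted p = 0.7165) and -0.11 for Tead1 (0.731).

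Of 17 genes of non-myelinating, immature and repair Schwann cells 3 rose and 2 fell (median 0.01). Artn, for the growth factor artemin, rose from 4.71 ± 0.12 to 5.47 ± 0.15, by 0.75 (SE 0.09, adjusted p = 0.00109). The cells that gave the Artn signal were not tested either. Its WT mean lay little above the negative control medians, so the size of the rise is uncertain. Jun, a transcription factor of repair Schwann cells and of many stressed cells, rose by 0.44 (adjusted p = 0.00213), and the teneurin gene Tenm3 by 0.34 (adjusted p = 0.0458). Apod, for a lipid carrier, fell by 0.62 (adjusted p = 0.0129), and Ncam1, for a cell adhesion molecule of glia and of muscle, by 0.45 (adjusted p = 0.035). Tenm3, whose genotypes overlapped, kept its call only when female WT 2 or female null 1 was the mouse left out (adjusted p 0.0847 to 0.142 for the other 6), and Apod lost its call without female null 1 (adjusted p = 0.0501). Ncam1 kept its call only when male WT 2, male null 1 or female WT 1 was the mouse left out (adjusted p 0.0673 to 0.109 for the other 5), so that the falls numbered 0 without female null 1 and 1 without the other 4. Jun alone of the 5 was called with the muscle covariate (0.60, adjusted p = 0.0316). Artn was at 0.79 (adjusted p = 0.0752), Tenm3 at 0.20 (0.726), Apod at -0.25 (0.674) and Ncam1 at -0.0006 (0.9995).

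Axon transcripts were mostly dim. Of 12 measured genes of peripheral axons 7 had a mean at or under the highest negative control median. None rose and 1 fell: Stmn2, for a tubulin-binding protein of growing axons, which went from 6.70 ± 0.06 to 6.10 ± 0.07, by 0.60 (SE 0.06, adjusted p = 0.000392). The list median was 0.02, and 1 gene was called higher without male null 1 and also with same-numbered mice as pairs. Stmn2 was not called with the muscle covariate (-0.48, adjusted p = 0.0701). Its source in bulk skin, axons or other cells, was not tested.

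Gene lists of other cells that use the members were read beside them; their part in the results was not tested. Of 12 sebaceous gland genes, beside Fa2h, 0 rose and 7 fell (median -0.32), with Mc5r, a melanocortin receptor gene of sebocytes, lower by 0.96 (adjusted p = 0.00316) and the wax synthase gene Awat1 by 0.70 (adjusted p = 0.0189). The mean of that list was 6.99 to 7.55 in WT and 6.82 to 6.94 in null arrays, and the 2 WT males were highest, as they were for Fa2h. Falls in the list numbered 3 with either WT male left out, 2 with male null 2 left out, and 4 with either null female left out; Awat1, whose genotypes overlapped, lost its call with either null mouse numbered 2 left out (adjusted p = 0.0659 for the male, 0.055 for the female). Of 11 hair shaft and root sheath genes limma called 0 (median -0.65; 0 higher and 4 lower at an unadjusted p under 0.05), with Krt71 at -0.76 (adjusted p = 0.0903) and Krt25 at -0.71 (adjusted p = 0.0971). Without female WT 1, where these genes were low, 7 fell, with Krt71 at -1.08 (adjusted p = 0.000637) and Krt25 at -1.01 (adjusted p = 0.000651). No hair gene was called when any other single array was left out. The differences were smallest without female WT 2, at -0.58 for Krt71 and -0.56 for Krt25. With the muscle covariate the sebaceous list had 3 falls, Mc5r among them (adjusted p = 0.0074) but not Awat1 (0.159), and 1 hair gene fell, Krt25 (adjusted p = 0.0428).

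Melanocytes share Sox10 with Schwann cells. Of 10 melanocyte genes 6 rose and 0 fell (median 0.33). The pigment enzyme genes Tyrp1 (adjusted p = 0.00158) and Dct (adjusted p = 0.00192) both rose, to null means of 6.06 and 5.75. Their WT means of 4.31 and 4.40 lay within the negative control medians, so the size of the rise is not given as a fold. With the muscle covariate neither was called (adjusted p = 0.13 and 0.123), and the list had 0 rises. The list mean was 4.21 to 4.38 in WT and 4.63 to 5.003 in null arrays. The rises numbered 3 without male WT 1, male null 1, male null 2 or female WT 2, and 1 fall was called without female WT 1 or with same-numbered mice as pairs. Lower melanocyte genes numbered 1 at an unadjusted p under 0.05 in limma, Mitf, which was not called (-0.38, adjusted p = 0.0744). Mitf was well above the negative controls, with means of 6.22 in WT and 5.83 in null skin. In 5 of the 10 the mean over all 8 arrays lay at or under the highest negative control median. Sox10 overlapped between the genotypes, as given above. In the other lists with 0 calls one way, that way held at an unadjusted p under 0.05 for 0 sebaceous, 1 axon, 0 muscle, 1 adipocyte and 0 fibroblast genes (higher), and for 2 myelin lipid enzymes and 1 immediate early gene (lower).

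Of 7 fibroblast genes, beside Pmp22, 0 rose and 1 fell (median -0.11): the proteoglycan gene Dcn by 0.83 (adjusted p = 0.04). It kept its call only when male WT 2 or male null 1 was the mouse left out (adjusted p 0.07095 to 0.116 for the other 6). The fibroblast mean was 8.21 to 8.62 in WT and 8.07 to 8.53 in null arrays and overlapped, where Pmp22 did not. Of 9 immediate early genes, beside Egr2, 1 rose and 0 fell (median 0.32): Ier3, a stress response gene, by 0.61 (adjusted p = 0.00715). Rises numbered 2 without male null 1 or female WT 1, 3 without female null 2 and 3 with same-numbered mice as pairs, and 1 fall was called without male null 1, without female WT 2 or with those pairs. Of 12 sweat gland genes limma called 0 (median 0.07; 1 higher and 1 lower at an unadjusted p under 0.05), with 0.37 for Krt8 (adjusted p = 0.154) and -0.23 for the water channel gene Aqp5 (adjusted p = 0.165). Without male WT 1 there was 1 rise and without female WT 1 there was 1 fall.

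Of 8 adipocyte genes 1 fell (Plin4, a lipid droplet gene, by 0.40, adjusted p = 0.00274; list median -0.17), and 1 rise was called without female WT 1. Of 20 skeletal muscle genes 17 fell (median -0.88), with the sarcomere gene Neb at -1.05 (adjusted p = 0.00628) and the enolase gene Eno3 at -0.996 (adjusted p = 0.00873). Falls numbered 9 when male WT 1 was left out, 8 for male null 2 as for female null 1, and 11 for female null 2. With the muscle covariate Dcn, Ier3 and Plin4 were not called (adjusted p = 0.969, 0.0815 and 0.211), and 1 adipocyte gene was called higher.

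**Figure D4:**
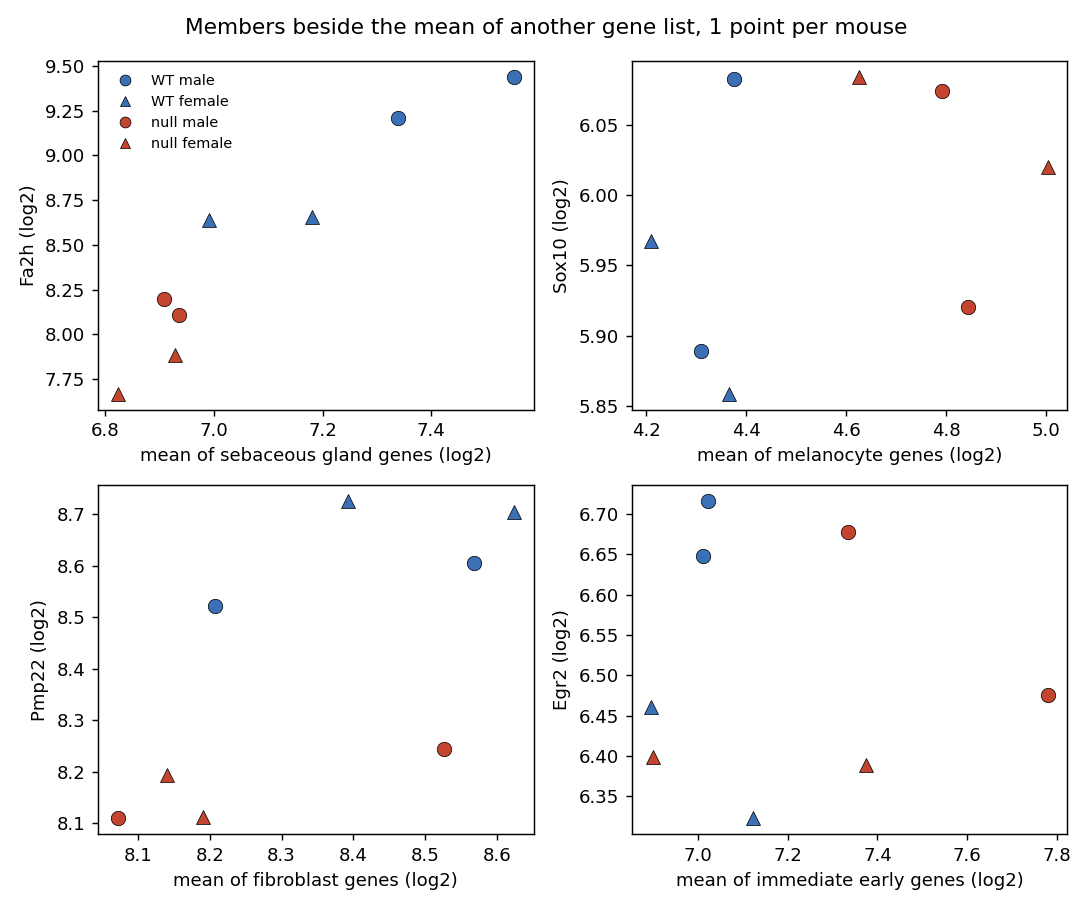
Log2 signal of Fa2h, Sox10, Pmp22 and Egr2 in each mouse against the mean of the sebaceous gland, melanocyte, fibroblast or immediate early genes of the same array. Fa2h is high in the WT males, where the sebaceous mean is high; Sox10 overlaps between genotypes although the melanocyte means (4.21 to 4.38 in WT, 4.63 to 5.003 in null arrays) do not.

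The genes most like each member over the 8 arrays were ranked by Pearson's r among 17038 genes brighter than the highest negative control median, as a description in which the arrays share genotype and sex. Fa2h was closest to Hacl1 (0.992), for a peroxisomal lyase of hydroxylated fatty acids, then to the lipase gene Mgll (0.988) and the haem synthesis gene Urod (0.986). Pmp22 was closest to Scrn3 (0.994), Rere (0.993) and Gatad2b (0.993). Mal was closest to Gm7551 (0.982), Tacr1 (0.980) and Dbf4 (0.980). For the members without a call the closest genes were Gucy1b1 (0.958), Sema3c (0.943) and Rsu1 (0.942) for Mbp, Gm13316 (0.983), Aspg (0.9754) and 4930597O21Rik (0.973) for Mag, Traf3ip1 (0.972), Prdm16 (0.963) and Mir7016 (0.956) for Sox10, and Rpl32l (0.976), Atox1 (0.951) and Rpl21-ps6 (0.946) for Egr2. None of these is another member. Among the members themselves r was 0.734 between Pmp22 and Fa2h, -0.900 between Pmp22 and Mal, and -0.833 between Fa2h and Mal over the 8 arrays. After the 4 group means were removed it was -0.827, -0.241 and -0.133.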

How the data were processed

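The table holds the deposited log2 signals of 72688 probe sets. Per the submitters' processing notes, Partek and RMA produced them; for versions, settings, build and annotation the sources used here give nothing. Values of 1.36 to 13.6 fit a log2 scale. RMA compresses large changes. After 6732 controls were left out, GEO's platform annotation and RefSeq symbols (GRCm38.p6) named 31269 probe sets of 1 gene, and the brightest stood for each of 30712 genes. No dim gene was removed.

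limma 3.58.1 in R 4.3.3 (lmFit, eBayes with trend) fitted genotype and sex, with 5 residual degrees of freedom, after a test on simulated data. Arrays have no read depth; their number limits precision. Promoters and plots used Python 3.11.15 with pandas 2.3.3 and matplotlib 3.10.9.

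The members and the 13 gene lists were chosen with earlier results of these data known. The text names all members, Krt16, the defining markers and the 3 genes most like each member. Of each list it names the 2 largest rises and falls called, or the 2 smallest p where none was. Cldn19, Sptlc2, Tenm3, Ugt8a, Mitf and the epidermal keratins were added after their values were seen. Deviations of same-numbered WT and null mice had a correlation across genes of 0.316 (males) and 0.115 (females), so such mice were treated as 4 pairs in an alternative; the study calls the mice littermates but does not say which mice shared a litter or day. The other alternatives concerned sex, normalization, dim genes, probe sets, prior, array weights, a muscle covariate, single arrays and single sexes.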

Additional observations from a re-analysis of the deposited data

Results flagged for a closer look

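Each genotype's 4 arrays were checked for a mouse far from the others in 14 groups, and chance flags about 1 in 20 such groups. Mal in null skin was marked because male null 1 (7.24) lay far under the other null mice (7.79 to 7.89), a gap of 0.836 of the group's range. Mag in WT skin was marked because female WT 2 (4.39) lay under the other WT mice (4.60 to 4.61), a gap of 0.948 of the range, at a signal close to the negative controls.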

How the results depend on the processing

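All 22 alternatives were run. Mag has no value with only genes above the median gene, so the 7 members gave 153 values: 143 kept their direction and side of the threshold, 4 lost a call, 0 gained one and 6 changed sign, the sign changes all in genes not called. With the replicate block (4 pairs of same-numbered mice) 2544 genes were higher and 2016 lower, again with 1 member higher and 2 lower; it changed no member's call. With the skeletal muscle mean as a covariate 231 genes were higher and 104 lower, with 0 members higher and 1 lower, and the signs of Mbp (0.074), Mag (0.0732) and Krt8 (-0.0414) turned; the cause was not tested. Within males 491 were higher and 189 lower, with 0 members higher and 1 lower; within females 497 and 427, with Mag at 0.0367 and Egr2 at 0.0016. These fits rest on fewer mice. Leaving out single arrays gave 1206 to 2289 higher and 840 to 1865 lower genes, and always 1 member higher and 2 lower; Mag then ran from -0.0644 to 0.0173 and S100b from -0.0232 to 0.2266. Signal near the negative controls limits Mag, the axon list, several melanocyte genes and some genes of the 4 pathway lists.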

Other observations

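Sex was a term of the fit and not a question of the study. Female minus male was -0.53 for Fa2h (SE 0.09, unadjusted p = 0.000176) and -0.24 for Egr2 (SE 0.07, unadjusted p = 0.00522), and in both genes both males of each genotype lay above both females of it. After limma's Benjamini-Hochberg adjustment over all genes neither passed (adjusted p = 0.406 and 0.929), and 5 genes (0.0163%) were called for sex in all. The other 5 members differed between the sexes by -0.06 to 0.11.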
